A study of Mus musculus with 2 samples.

Results

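The genes described here are the 82 protein-coding histone genes of the mouse annotation, out of 55536 annotated genes and 22028 protein-coding ones. They were taken by name alone, as symbols that begin with Hist and a digit, H2af, H3f3 or H1f, and no measured value entered the choice. Of these, 67 are clustered genes, whose symbols begin with Hist, and 15 are replacement genes. The data are long-read RNA sequencing libraries of whole adrenal gland from male B6CASTF1/J mice, the offspring of C57BL/6J and CAST/EiJ parents, at an age of 4 days. The mice carried no other stated allele and received no stated treatment, and the study holds 1 group of 2 libraries, called replicate 1 and replicate 2. The labels call them biological replicates but do not agree on whether the tissue came from different animals, so their spread may be technical. Replicate 1 held 688260 reads on mouse genes and replicate 2 held 810645. Levels are given as CPM (counts per 1000000 such reads), on which scale a single read was worth 1.45 CPM in replicate 1 and 1.23 CPM in replicate 2.

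Clustered histone genes supply the bulk of new nucleosomes while DNA is being copied. Their transcripts lack introns in the usual case and end just after a short RNA hairpin, the histone stem-loop, which SLBP binds and which replaces the poly(A) tail. Replacement genes are transcribed through the cell cycle, are mostly spliced and polyadenylated, and encode forms such as H3.3, H2A.Z, H2A.X, macroH2A and H1.0 that are exchanged into chromatin outside replication. The symbols used here are those of GENCODE release M21, before the genes were renamed.

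The stem-loop is the sequence that separates the 2 kinds of transcript, and it is shown here for the clustered genes with the most reads that hold it, for the single replacement gene that holds it, and for an H4 gene. Capitals mark the 16 bases of the hairpin in the annotated transcript, 5′ to 3′, and the flanking bases are in lower case. All are reference sequences of build mm10, taken from the GENCODE transcripts, and not of the CAST/EiJ alleles.
Hist2h2aa1 at chr3:96246027-96246052, plus strand: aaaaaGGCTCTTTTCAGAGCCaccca
Hist2h2aa2 at chr3:96239779-96239804, minus strand: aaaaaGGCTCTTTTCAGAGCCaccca
Hist1h2ap at chr13:21833026-21833049, minus strand: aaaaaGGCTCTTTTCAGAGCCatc
Hist1h1c at chr13:23739507-23739532, plus strand: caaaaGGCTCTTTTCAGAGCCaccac
Hist3h2a at chr11:58955167-58955192, plus strand: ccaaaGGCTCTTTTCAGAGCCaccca
Hist1h4i at chr13:22040961-22040986, minus strand: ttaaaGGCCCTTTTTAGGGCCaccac
H2afx at chr9:44335235-44335260, plus strand: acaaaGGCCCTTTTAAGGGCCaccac

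The pattern searched on the transcript strand was GG, 3 bases, TTNTNA, 3 bases and CC, with each of its 6 stem pairs formed, G-T pairs included. It was found in an annotated coding transcript of 46 of the 67 clustered genes (68.7%) and of 1 of the 15 replacement genes (6.67%). Among 58696 protein-coding transcripts of other genes 0.170% held it, and 3.81% held the letters without the pairing. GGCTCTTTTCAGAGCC was the most frequent form, in 26 genes of the H1, H2A, H2B and H3 families. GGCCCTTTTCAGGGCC was held by 7 genes, which were H4 genes. The form in H2afx, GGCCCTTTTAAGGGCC, was held by 1 gene. No match says that these letters are not in the annotated transcript, and nothing about the RNA of the gene.

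Replacement genes took most of the histone reads. Histone genes together held 2783 reads in replicate 1 and 3746 in replicate 2, or 0.404% and 0.462% of mouse reads. Replacement genes held 2490 and 3382 of these, a summed level of 3618 and 4172 CPM (mean 3895 ± 392, SD, n = 2). Clustered genes held 293 and 364 reads, a summed level of 426 and 449 CPM (437 ± 16.5, SD, n = 2). Clustered genes therefore made up 10.5% of histone reads in replicate 1 (95% Wilson interval 9.44 to 11.7) and 9.72% in replicate 2 (8.81 to 10.7), and the intervals overlap. How the RNA was primed for these libraries is not given in the sources used here, so the counts describe the RNA that entered the libraries, with or without a tail. In whole tissue, fewer cells of a type and less RNA per cell cannot be told apart.

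Split by gene structure, the 13 genes with a spliced annotated transcript held 2226 and 3067 reads, and the 69 genes with single-exon transcripts alone held 557 and 679. The split follows the annotation and not the reads. H2afj counts as spliced, yet its single-exon transcript H2afj-201 held 200 and 221 of its 200 and 224 reads. Reads on single-exon models of H3f3a, H3f3b and Hist1h2bc are likewise counted with the spliced genes. Single-exon structure and clustering did not coincide. The single-exon replacement genes, chiefly H1f0 and H2afx, held 355 and 435 reads, more than the 202 and 244 of all 62 single-exon clustered genes. Among the 5 clustered genes with a spliced annotated transcript, Hist1h2bc supplied nearly all of the 91 and 120 reads.

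Clustered genes were found less often than protein-coding genes as a whole. At least 1 read in either library was seen for 24 of the 67 clustered genes (35.8%) and for 15 of them in both libraries. The share in either library was 67.7% over all protein-coding genes and 26.7% over the 1344 protein-coding genes with single-exon transcripts alone. In both libraries it was 22.4% for clustered genes, against 57.7% and 19.9%. Of the 62 clustered genes with single-exon transcripts alone, 20 were found, and 14 in both libraries. Whether clustered genes differ from other single-exon genes in this was not tested. Of the 24 genes found, 13 rested on 1 to 3 reads over both libraries, 4 on 4 to 19 and 7 on at least 20. A gene with 0 reads can hold up to 3 by counting error, or 4.36 CPM in replicate 1 and 3.70 CPM in replicate 2, so that low expression of the other 43 was not detectable at this depth. Among the replacement genes, 10 of 15 were found, and all 10 in both libraries. The 5 at 0 were H1fnt, H1foo, H2afb1, H2afb2 and H2afb3, which are known from germ cells, and the germ cell markers Prm1, Prm2, Tnp1, Dazl and Ddx4 were also at 0.

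The families were filled in different ways. In the H3 family the 2 replacement genes held 1181 and 1753 reads, while the 12 clustered genes together held 2 and 1. Not counted there are 3 and 10 reads assigned to Gm20634, which overlap the clustered H3 gene Hist2h3c1 on its strand. H4 has no replacement gene under these names, and the 13 clustered H4 genes held 7 and 16 reads. H2B likewise has none, and its 18 clustered genes held 107 and 138 reads, of which Hist1h2bc supplied 91 and 116. H2A was carried by both kinds, with 1092 and 1322 reads from replacement genes and 150 and 160 from clustered ones. For the linker histone H1, replacement genes held 217 and 307 reads and clustered genes 27 and 49. The order of the family sums was the same in both libraries for the replacement genes, and the counts of clustered H3 and H4 genes were too low to rank.

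**Figure D1:**
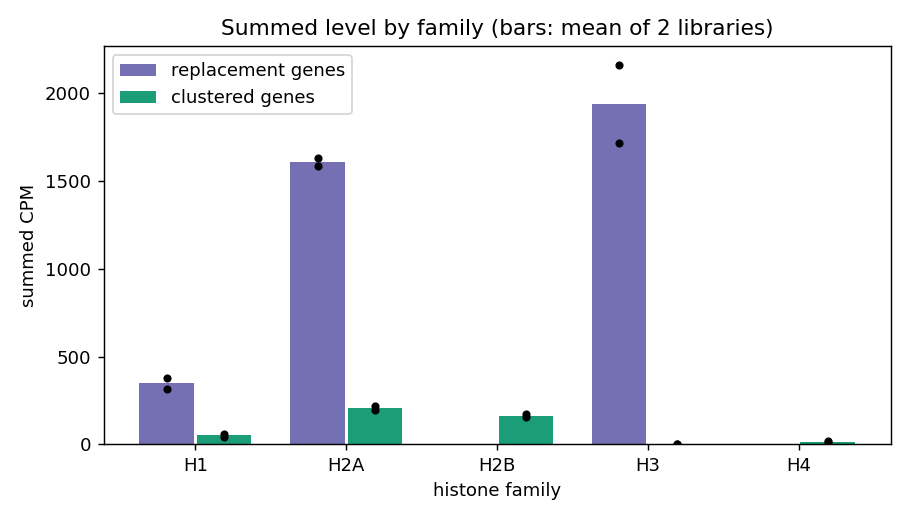
Summed level in CPM (y axis) by histone family (x axis) for replacement and clustered genes; bars are means and points the 2 libraries, and no replacement gene of H2B or H4 carries these names. Replacement H3 genes reach 1716 and 2162 CPM, clustered H3 genes 2.91 and 1.23.

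By locus, the 54 clustered genes of Hist1 on chromosome 13 held 140 and 208 reads, and 16 of them were found. The 10 genes of Hist2 on chromosome 3 held 119 and 123 reads with 5 found, the 2 genes of Hist3 on chromosome 11 held 34 and 32, and Hist4h4 held 0 and 1. In CPM the Hist1 sum was 203 and 257 and the Hist2 sum 173 and 152.

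Among replacement genes, the H3.3 gene H3f3b was the most abundant. H3f3b (chr11:116021912-116027962, minus strand) stood at 1000 CPM in replicate 1 and 1409 CPM in replicate 2, from 688 and 1142 reads. H3f3a (chr1:180800832-180813943, minus strand), which encodes the same protein, stood at 716 and 754 CPM. Their main transcripts share 73.6% of 1753 aligned bases. H3f3b exceeded H3f3a in both libraries, and the values of the genes did not overlap.

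H2A.Z is encoded by H2afz and H2afv and is placed at promoters by the SRCAP and EP400 complexes. H2afz (chr3:137864487-137866922, plus strand) reached 603 and 703 CPM, from 415 and 570 reads. H2afv (chr11:6427229-6444443, minus strand) reached 196 and 258 CPM, from 135 and 209 reads. H2afz was the higher of the pair in both libraries. Its mean lay below that of H3f3a when all models were counted (653 against 735 CPM). That order depends on the single-exon genomic models of H3f3a, since without genomic models H3f3a stood at 638 and H2afz at 688 CPM, and with known models only at 819 and 852 CPM.

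The other replacement H2A genes stood below H2afz in both libraries. H2afj (chr6:136808244-136810074, plus strand), which encodes H2A.J, stood at 291 and 276 CPM. H2afx (chr9:44334694-44336077, plus strand) encodes H2A.X, the form phosphorylated at DNA breaks, and stood at 201 and 158 CPM. H2afy (chr13:56073619-56136361, minus strand) and H2afy2 (chr10:61738665-61784147, minus strand) encode the macroH2A proteins, which carry a large globular domain behind the histone fold. H2afy held 175 and 163 reads, 254 and 201 CPM, and H2afy2 held 29 and 28 reads, 42.1 and 34.5 CPM. H2afy was thus the main macroH2A gene in both libraries.

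Of the linker histones, H1f0 (chr15:79028450-79030504, plus strand), whose protein H1.0 is typical of cells that have left the cycle, stood at 308 and 366 CPM from 212 and 297 reads. H1fx held 5 and 10 reads, 7.26 and 12.3 CPM, and this count is uncertain. Reads numbering 39 and 66 were assigned to Gm47286, an annotated miRNA gene of 128 bases (chr6:87981614-87981741) that overlaps the first 24 bases of H1fx on the same strand. With those reads added, H1fx would stand at 63.9 and 93.8 CPM, so 7.26 and 12.3 CPM are the values of the deposited assignment and not of the locus.

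The clustered genes were led by Hist1h2bc, an H2B gene (chr13:23684199-23692908, plus strand), at 132 and 143 CPM from 91 and 116 reads. Hist2h2aa2 (chr3:96239749-96240276, minus strand) held 59 and 59 reads, 85.7 and 72.8 CPM. Hist2h2aa1 (chr3:96245497-96246082, plus strand) held 47 and 54 reads, 68.3 and 66.6 CPM. These H2A genes are identical over 528 of 528 aligned transcript bases, so how reads divide between them is uncertain. Their sum is the firmer value, 154 and 139 CPM (147 ± 10.3, SD, n = 2). Hist1h2bc and this pair made up 67.2% and 62.9% of all clustered reads.

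The next clustered genes were Hist1h1c, which encodes the linker histone H1.2, with 24 and 46 reads (34.9 and 56.7 CPM), and Hist3h2a with 30 and 24 reads (43.6 and 29.6 CPM). Hist1h2ap held 9 and 12 reads and Hist2h2be 11 and 9. Hist1h2ap is identical to Hist1h2ao over 452 of 452 aligned bases, and the pair together held 13 and 20 reads. Below 20 reads over both libraries, the most abundant besides H1fx were Hist1h4h (5 and 9 reads), Hist1h2ao (4 and 8), Hist3h2ba (4 and 8) and Hist1h4i (2 and 6). Near-identical copies, defined as at least 99% identity over at least 300 bases within a family, involved 15 of the 67 clustered genes in 8 pairs, and 7 of the 24 genes found belonged to such a pair.

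**Figure D2:**
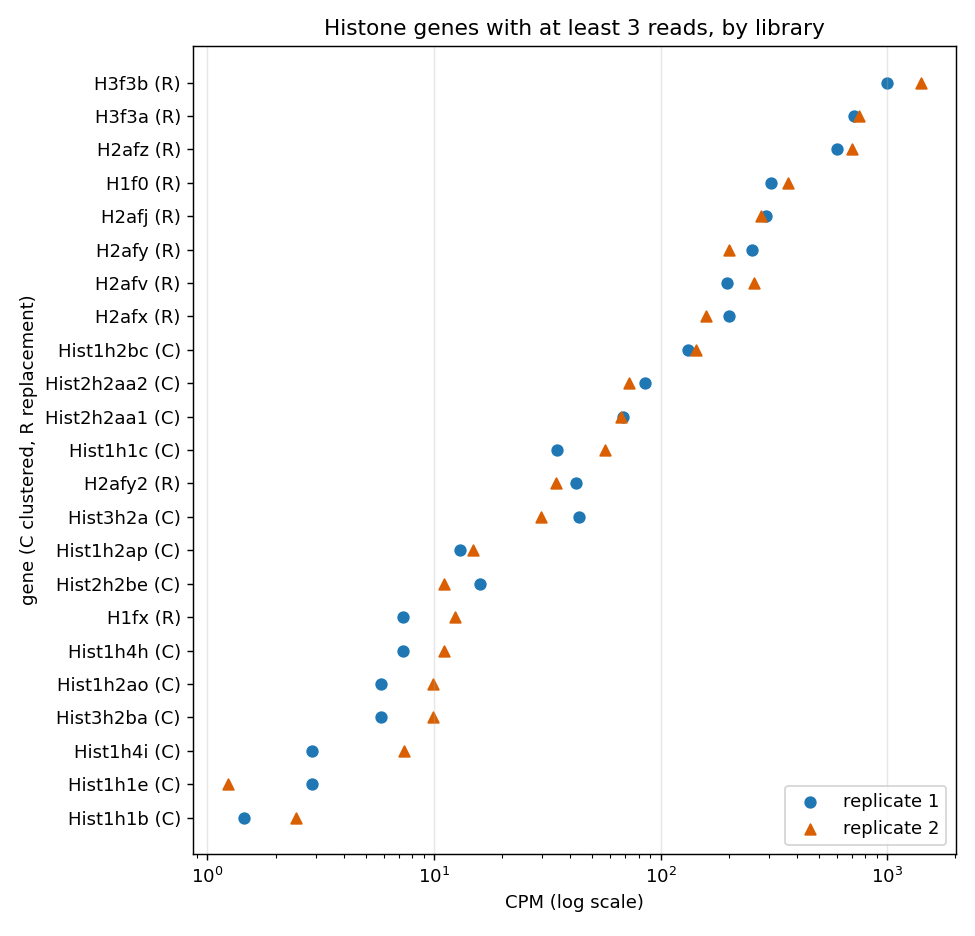
Level in CPM (x axis, log scale) of the 23 histone genes that reached 3 reads in all, 1 row per gene, with C for clustered and R for replacement genes and 1 point per library. H3f3b is highest in both libraries, and the 8 most abundant genes are replacement genes.

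Ordered by mean level, the 16 histone genes that reached 20 reads form 15 neighbouring pairs. In 10 pairs the library values did not overlap, which with 2 libraries is a description and not a test. The 5 pairs that overlapped were H2afy with H2afv, H2afv with H2afx, Hist1h1c with H2afy2, H2afy2 with Hist3h2a, and Hist1h2ap with Hist2h2be. Some gaps between values that did not overlap were smaller than the spread within a gene, as between H3f3a (716 and 754 CPM) and H2afz (603 and 703 CPM) and between H1f0 (308 and 366 CPM) and H2afj (291 and 276 CPM).

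Where transcripts end is set out by the annotated models to which reads were assigned. TALON, the program whose tags the files carry, assigns a single-exon read to an annotated model without a splice junction to match, so an annotated end is not the end of each read. With that limit, 23 clustered genes have coding models that end within 100 bases after the stem-loop, as in the textbook form of a histone transcript. Of these, 8 had reads, 125 in replicate 1 and 145 in replicate 2, or 42.7% and 39.8% of clustered reads. In Hist2h2aa1 and Hist2h2aa2, which supplied most of them, 35 annotated bases follow the stem-loop, and neither has a poly(A) signal hexamer in its last 50 bases.

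A further 23 clustered genes have coding models that run more than 100 bases past the stem-loop, and 9 of these had reads, 65 and 87. Hist1h1c runs 840 bases past it and Hist3h2a 1643 bases. Both carry a poly(A) signal hexamer near the annotated end, as do the replacement genes H1f0 and H2afj, and these ends are shown with the hexamer in capitals.
Hist1h1c at chr13:23740336-23740365, plus strand: gcttctAATAAAaagcgtttagttttcatt
Hist3h2a at chr11:58956791-58956820, plus strand: atgcccAATAAAataagagtacgtgtataa
H1f0 at chr15:79030477-79030504, plus strand: ctttaaAATAAAactggaaaggaaaaaa
H2afj at chr6:136810045-136810074, plus strand: aggacaAATAAAgaatatattacaaatctg

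The hexamers searched were AATAAA and ATTAAA in the last 50 bases on the transcript strand. They were present in at least 1 coding transcript of 17 of 67 clustered genes (25.4%) and of 10 of 15 replacement genes (66.7%). Counted per transcript, 50.2% of all protein-coding transcripts held one. A gene with several transcripts has more chances to count, so the shares of genes cannot be set against that share. Earlier 50-base windows of protein-coding transcripts held one in 2.95% of cases. The 17 clustered genes with a hexamer held 77 and 108 reads, 26.3% and 29.7% of clustered reads, and 11 of the 17 were found. Of the 50 clustered genes without a hexamer, 13 were found, with 216 and 256 reads. This class follows the annotated end. Hist1h2bc held 91 and 116 of these reads, and 25 and 52 of them lie on single-exon models that end earlier, after an AATAAA. H2afx carries both signals. Its single annotated transcript runs 822 bases past the stem-loop to an end with a hexamer, and its 138 and 128 reads were all assigned to that transcript. The remaining 21 clustered genes show no stem-loop in their models, and 7 of them had reads, 103 and 132, chiefly Hist1h2bc.

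**Figure D3:**
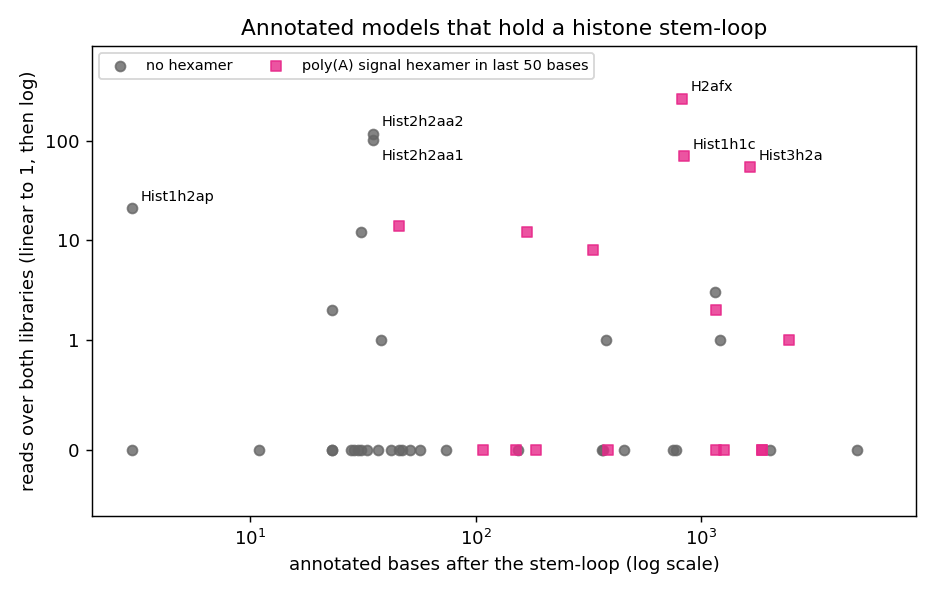
Reads over both libraries (y axis, linear up to 1 and log above) against the annotated bases after the stem-loop (x axis, log scale) for each coding model with a stem-loop, marked by whether a poly(A) signal hexamer lies in its last 50 bases. Hist2h2aa1 and Hist2h2aa2 lie at 35 bases without a hexamer, while H2afx, Hist1h1c and Hist3h2a lie at 822, 840 and 1643 bases with one.

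Hist1h2bc has an unusual structure for a clustered gene. Its annotated transcript has an exon of 423 bases (chr13:23684199-23684621) that holds the whole coding sequence, an intron of 7554 bases, and an exon of 733 bases (chr13:23692176-23692908) that is 3′ UTR throughout. No stem-loop lies in this transcript, which took 64 reads in replicate 1 and 60 in replicate 2. A further 25 and 52 reads were assigned to single-exon models inside the last exon. Both of those models end at base 23692480, 428 bases before the annotated end, with an AATAAA hexamer 13 bases upstream, and 10 of the next 20 genomic bases were A. Such incomplete models made up 27.5% of the gene's reads in replicate 1 (95% Wilson interval 19.4 to 37.4) and 44.8% in replicate 2 (36.1 to 53.9). With incomplete models counted, the spliced transcript held 70.3% and 52.2% of the reads (two-sided Fisher's exact test, p = 0.00989, adjusted p = 0.156), a difference that did not pass the test over all genes.

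Most histone reads were assigned to an annotated transcript. TALON separates known models from incomplete matches (part of a known intron chain), from new models that recombine known splice sites or use a new one, and from genomic models, which match no model of the gene and in histone genes were single-exon apart from a few models of 1 read each. Known models took 87.2% and 86.8% of histone reads, against 77.1% and 74.0% over all known genes. For clustered single-exon genes the share was 100% of 202 reads and 99.6% of 244, and for clustered genes with a spliced transcript it was 70.3% of 91 and 52.5% of 120. Reads of single-exon genes are assigned without a splice junction to match, and the part of this in their high share was not tested. These reads raise the share over all histone genes, which was 84.1% and 84.0% for those with a spliced transcript. Genomic models took 6.55% and 7.01% of the reads of replacement genes, against 4.57% and 6.59% over all genes, and came almost entirely from H3f3a and H3f3b.

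In H3f3a, a single-exon model of 457 bases (chr1:180802568-180803024) recurred in both libraries with the same ends. It lies in the last exon, ends 1736 bases before the annotated end, and held 80 reads in replicate 1 and 118 in replicate 2. Genomic models made up 16.2% of H3f3a reads in replicate 1 (95% Wilson interval 13.2 to 19.7) and 19.5% in replicate 2 (16.5 to 22.8). An ATTAAA hexamer ends 2 bases before the model's end, closer than the 16 bases at the annotated end. The reference sequence around the former and at the latter is shown with the hexamer in capitals.
H3f3a inner site at chr1:180802552-180802581, minus strand: aaatacATTAAActatacctgcttctggtc
H3f3a annotated end at chr1:180800832-180800859, minus strand: aaaaatAATAAAagtaccaatagaagaa

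H3f3b showed the same kind of model at other places. Models that ended 889 bases (replicate 1) and 887 bases (replicate 2) before the annotated end held 55 and 60 reads, with an ATTAAA 19 and 21 bases upstream. Others nearer the end held 23 and 48 reads, and 9 or 10 of the 20 genomic bases after them were A. Genomic models made up 11.3% and 9.54% of H3f3b reads. The spliced transcript H3f3b-201 took 568 and 984 reads and the shorter H3f3b-203 took 30 and 31. Ends of models are given here, and how far single reads vary around them was not analysed here.

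H2afy was the histone gene with the most varied splicing, and the models that led it were not annotated as a whole. New combinations of known splice sites took 60.0% and 62.0% of its reads. Its last coding part holds a pair of alternative exons, which were rarely used together. The 100-base exon of H2afy-201 gives the protein known as macroH2A1.2, and the 91-base exon of H2afy-202 gives macroH2A1.1, whose macro domain binds ADP-ribose. Further upstream, an exon begins at acceptors 3 bases apart (chr13:56096124-56096234 or chr13:56096124-56096231, minus strand, transcribed from the higher number). The 3 bases in question are in capitals in the first sequence, which joins the end of the exon before to the longer form, and both alternative exons follow.
H2afy tandem acceptor: cggaagtctaagAAGaagcagggagaagtg
H2afy exon of H2afy-201, chr13:56089758-56089857, minus strand: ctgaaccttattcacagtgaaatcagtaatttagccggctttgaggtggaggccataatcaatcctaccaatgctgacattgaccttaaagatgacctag
H2afy exon of H2afy-202, chr13:56088252-56088342, minus strand: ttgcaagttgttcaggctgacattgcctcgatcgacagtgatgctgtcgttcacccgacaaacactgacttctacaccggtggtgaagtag

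The shorter form of the upstream exon was the more frequent. It was used by 109 of 167 reads in replicate 1 (65.3%, 95% Wilson interval 57.8 to 72.1) and by 102 of 158 in replicate 2 (64.6%, 56.8 to 71.6). Both intervals lie above 50%, yet the full-length annotated transcripts H2afy-201 and H2afy-202 use the longer form, and among annotated models the shorter form occurs in the partial H2afy-204. Another acceptor, 3 bases further on, was seen in 1 and 1 reads. The letters AAG also stand directly before and after the marked bases, so that the place of the missing bases follows the splice sites the files assign.

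The choice between the alternative exons was nearly even. The 100-base exon was used by 82 of 160 reads in replicate 1 (51.3%, 43.6 to 58.9) and by 85 of 156 in replicate 2 (54.5%, 46.7 to 62.1). Both exons together occurred in 4 and 1 reads. No difference between the libraries was detected for either choice (two-sided Fisher's exact test, p = 0.908 for the acceptor and 0.575 for the exon, both adjusted to 0.908 over the 2 tests). Among reads with the 100-base exon, 70.7% and 66.7% had the shorter upstream form, and among reads with the 91-base exon 57.9% and 61.4%, with intervals that overlap. The choices thus gave 4 main transcripts. The new models that carry the shorter form held 55 and 55 reads with the 100-base exon and 44 and 41 with the 91-base exon. The annotated H2afy-202 held 32 and 23 reads and H2afy-201 22 and 24.

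**Figure D4:**
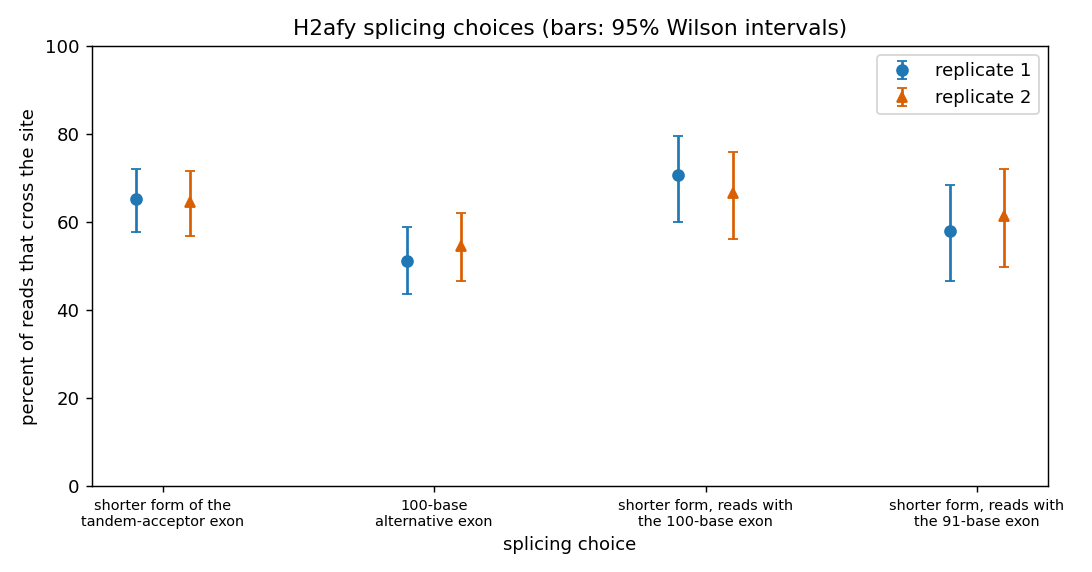
Percent of H2afy reads (y axis) for 4 splicing measures (x axis), with points for each library and bars for 95% Wilson intervals, which cover counting error only. The shorter form of the tandem-acceptor exon lies at 65.3% and 64.6%, and the 100-base alternative exon at 51.3% and 54.5%.

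Other histone genes were close to single-isoform. The leading model took 98.8% and 99.6% of complete reads in H3f3a (H3f3a-205), 94.2% and 95.8% in H3f3b, 97.0% and 97.2% in H2afz, and 96.2% and 91.0% in H2afv. In H2afz a new 5-exon model with a new splice site held 11 and 10 reads. It ended 104 bases before the end of H2afz-201, with an AATAAA hexamer 11 bases upstream. That end is itself annotated, as the end of H2afz-207 (base 137866818). A test of the leading model's share was possible for 10 histone genes among 2440 genes. None of the 10 was called by Fisher's exact test at an adjusted p below 0.05 with a difference of 10 points or more, none had an unadjusted p under 0.05, and 0.41% of all genes were called.

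Levels were compared between the libraries with Fisher's exact test, which compares these 2 libraries and not animals. Calls required a Benjamini-Hochberg adjusted p below 0.05 together with at least 1 log2 unit of difference, computed after adding 0.5 CPM. Among the 16 histone genes tested, 0 were called in either direction, against 3.23% of the 8276 genes tested (2.26% higher and 0.967% lower in replicate 2), and 4 of 16 had an unadjusted p under 0.05, against 19.2% of all genes tested. Log2 ratios of replicate 2 over replicate 1 ran from -0.55 for Hist3h2a to 0.69 for Hist1h1c, with 8 genes above 0 and 8 below. Their median was 0.02, beside -0.10 over all genes tested.

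H3f3b had the smallest p, with a log2 ratio of 0.49 (counting SE 0.070, Fisher's exact test, adjusted p = 6.32e-11), which is below the size required for a call. On the adjusted p alone it was 1 histone gene higher and 0 lower, against 7.93% of all genes, with 3.83% higher and 4.1% lower. H3f3a, of the same protein, had a log2 ratio of 0.07. H2afz (0.22, adjusted p = 0.139) and H2afv (0.39, adjusted p = 0.124) did not pass Fisher's exact test, and passed on the adjusted p alone under other scalings or models (H2afz with TMM factors, DESeq2 factors or known models only, H2afv with DESeq2 factors). H2afy, at -0.34, had an unadjusted p of 0.033 by Fisher's exact test and an adjusted p of 0.204. Hist1h1c, whose point lies farthest out, rested on 24 and 46 reads (counting SE 0.36, adjusted p = 0.277 by Fisher's exact test).

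**Figure D5:**
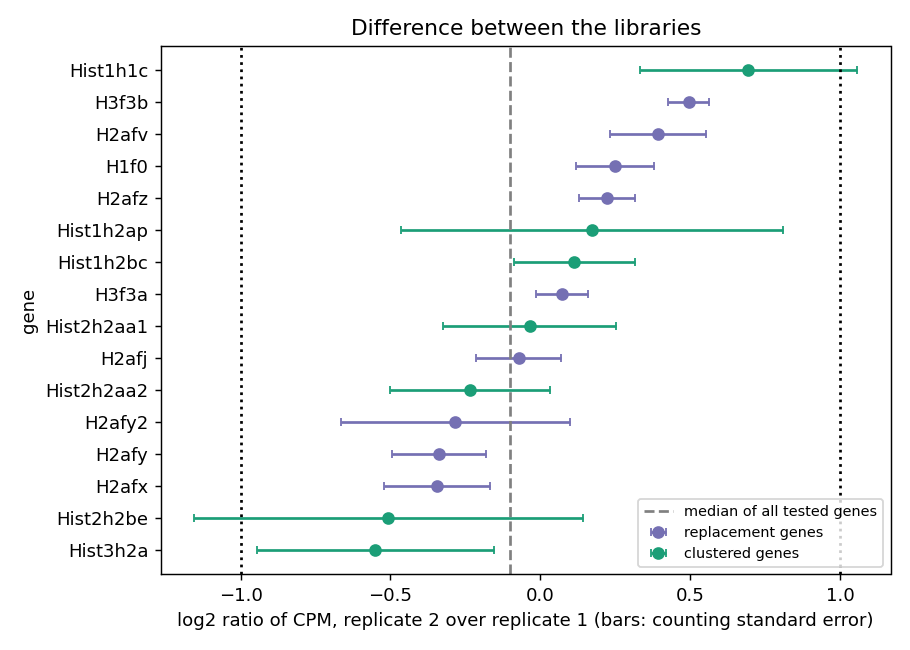
Log2 ratio of CPM, replicate 2 over replicate 1 (x axis), for the 16 tested histone genes (1 row each), with counting standard errors as bars, dotted lines at the size required for a call and a dashed line at the median of all tested genes. All points lie between the dotted lines, from -0.55 to 0.69, with narrow bars for H3f3b and wide ones for clustered genes.

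Markers of some other cell types also differed between the libraries, and how their RNA came into the libraries was not tested. Over all genes tested, 2.26% were called higher and 0.967% lower in replicate 2. Markers of the adrenal cortex summed to 45805 CPM in replicate 1 and 31233 in replicate 2, and chromaffin markers to 12504 and 9293, so markers of the labelled tissue were present in both. Of 6 cortex and 6 chromaffin markers 0 were called. On the adjusted p of Fisher's exact test alone, 5 and 4 of them were lower in replicate 2, against 4.1% of all genes tested. Hepatocyte markers, 10 of 10 with reads and 10 of 10 called higher in replicate 2, summed to 443 and 17202 CPM, and Cyp3a11 and Plg were at 0 in replicate 1. Erythroid markers, 9 of 9 annotated with reads, summed to 3677 and 7499 CPM, and 3 of the 5 tested were called higher. Endothelial markers summed to 697 and 635 CPM, and 1 of the 3 tested, Pecam1, was called lower in replicate 2 (53.8 and 19.7 CPM). Macrophage markers summed to 289 and 254 CPM, with 0 of 4 called. The part of these cell types in the higher H3f3b, H2afz and H2afv values of replicate 2 was not tested.

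No gene of the 3 lists of genes that act around histones was called between the libraries, against 3.23% of the 8276 genes tested. At that share, lists this short can hold no call, so the counts say little about the lists. Of 15 genes for histone pre-mRNA processing, 15 had reads, 9 were tested and 0 were called, with a median log2 ratio of -0.23. The most abundant were Cpsf3, the nuclease that cuts histone transcripts (142 and 123 CPM), Slbp, which binds the stem-loop (97.3 and 82.7 CPM), Srrt (77.0 and 88.8 CPM) and Ncbp2 (88.6 and 55.5 CPM), both of the cap-binding machinery. Npat, which activates clustered histone genes, had 1 and 0 reads. The list's summed level was 551 ± 67.4 CPM (SD, n = 2).

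Histone chaperones and exchange factors had reads for 28 of 28 genes, with 21 tested, 0 called and a median of -0.10. Rbbp7 (328 and 319 CPM), Npm1 (321 and 300 CPM), Set (260 and 233 CPM) and Ssrp1, a FACT subunit (216 and 216 CPM), were the most abundant. On the adjusted p alone, 1 of the 21 was lower and 0 were higher, against 4.1% and 3.83% of all genes tested. It was Ruvbl2, a subunit of the complexes that exchange H2A.Z (log2 ratio -0.63, adjusted p = 0.0484, Fisher's exact test). How its value moves with scaling is not given here. Asf1a and Asf1b, which hand over H3 and H4, stood at 37.8 and 50.6 CPM and at 18.9 and 19.7 CPM. Hira, the H3.3 chaperone subunit, had 0 and 1 reads.

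Genes of S phase and proliferation were present, with reads for 25 of 26 (Pola1 at 0), 21 tested, 0 called and a median of -0.07. Their summed level was 1536 and 1521 CPM. The replicative helicase genes Mcm2 (185 and 175 CPM), Mcm6 (180 and 134 CPM) and Mcm7 (163 and 138 CPM) led the list, followed by the sliding clamp gene Pcna (90.1 and 111 CPM). Those with reads but too few to test were Cdc6 (8 and 3 reads), Ccne2 (7 and 4), Top2a (2 and 6) and Mki67 (0 and 4).

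Promoters of the members were searched for 3 motifs on both strands, in RefSeq promoters of build GRCm38.p6 from 250 bases before to 50 after the start. Promoters matched for 62 of 67 clustered and 14 of 15 replacement genes. Hist1h2bc, the leading clustered gene, was among those without a match, as were Hist2h2be and the replacement gene H2afx. CCAAT was in 85.7% of 63 clustered promoters, 71.4% of 14 replacement promoters and 37.4% of all 32851 promoters. TATAAA was in 55.6%, 7.14% and 13.6% of them. The octamer ATTTGCAT, which Oct-1 binds in H2B promoters, was in 22.2%, 7.14% and 1.74%.

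Within the clustered genes the motifs followed the families. CCAAT was in every H1, H2A, H2B and H3 promoter matched but in 3 of 12 H4 promoters. The octamer was in 7 of 17 H2B and 7 of 18 H2A promoters and in none of the other families. Some H2A and H2B windows overlap, as those of Hist1h2ae and Hist1h2bg, Hist1h2ah and Hist1h2bk, and Hist1h2aa and Hist1h2ba. With both strands searched, the same octamer can count in both families, so these promoters are not independent. Among the promoters of genes with reads, that of Hist3h2a held the octamer and CCAAT, that of Hist2h2aa1 held CCAAT and TATAAA, and those of Hist1h1c and Hist2h2aa2 held CCAAT alone. A match describes the letters in this window and not a bound site.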

How the data were processed

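Whole adrenal gland was measured in 1 group of 2 libraries. The deposited tables hold, for each transcript model, the raw count of long reads assigned to it, with no scaling by the authors; models without a read are not listed. Alignments were to mm10 with GENCODE mouse release 21, per the labels and the descriptions deposited with the files; for the aligner, its version and the priming of the libraries the sources used here give nothing. The members and lists were chosen with earlier results of these data known.

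Counts were summed per gene; CPM used 688260 and 810645 mouse reads, with ERCC spike-ins left out and SIRVs not analysed here. Genes with at least 20 reads were compared by Fisher's exact test (two-sided) with Benjamini-Hochberg adjustment (SciPy 1.17.1), and leading isoforms likewise at 50 or more complete or new-splice reads in each library. Incomplete and genomic models were left out of isoform shares. Stem-loops and hexamers were searched in GENCODE transcripts; 75 of 75 annotated histone model entries with reads had the exons of the reference. The statistics were tested on simulated data. Named were the histone genes with at least 20 reads and the 5 most abundant below, their leading 3 models, new models with at least 3 reads, and the 4 most abundant members of each pathway list. Npat, Hira, Ruvbl2, Asf1a, Asf1b, Pecam1, the S phase genes with too few reads to test, the genes at 0 and those with motifs were chosen after their values were seen. The class of 100 bases after the stem-loop and the H2afy measures were also chosen with values in view. The alternatives tried were TMM (edgeR 4.0.16) and DESeq2 1.42.0 size factors, other read minimums, other amounts added, and fewer model classes. Since reads carry no molecular identifiers, they are not independent molecules, and intervals and floors cover counting error only.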

Additional observations from a re-analysis of the deposited data

How the results depend on the processing

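No histone gene was called between the libraries under any of the 9 alternatives in scaling, read minimum, added CPM and model classes, nor any isoform share under its 3. On the adjusted p alone, the count of 1 became 2 with TMM factors, 3 with DESeq2 factors and 2 with known models only. The scalings moved the share of called genes that were higher in replicate 2 from 70.0% to 76.7% (TMM) and 82.4% (DESeq2), and the median log2 ratio of all genes from -0.10 to -0.04 and 0.01, so ratios near 0 depend on scaling; Hist2h2aa1 and H2afj changed sign that way. With known models only, Hist1h2bc went from 0.11 to -0.25. Summed CPM of clustered genes went from 437 to 461 without genomic models and 530 with known models only, that of replacement genes to 4710 with known models only, and the clustered share of histone reads to 10.8% without genomic models; the totals shrink by construction there. The shorter H2afy form went from 64.9% to 66.3% without incomplete and genomic models, chosen after seeing the data. No paired analysis was possible because there is 1 group. Clustered genes under 20 reads and genes at 0 are limited by depth. Leaving out either library gives the other library's values, as printed.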

Other observations

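Some values belong to no comparison above. Cenpa, which encodes the centromeric H3 form and lies outside the name rule, held 31 and 40 reads, 45.0 and 49.3 CPM. Aifm2, a protein-coding gene on the opposite strand that overlaps H2afy2, held 53 and 39 reads over the overlap, beside 29 and 28 for H2afy2 itself. Gm20634, a processed transcript on the strand of Hist2h2aa1 and Hist2h3c1, held 3 and 10 reads that overlap Hist2h2aa1, and as many that overlap Hist2h3c1. Opposite-strand reads over all clustered genes came to 10 and 19. Of the 9 histone-named genes annotated as pseudogenes or antisense, H3f3aos had 0 and 1 reads, Hist1h2aj 1 and 0, Hist3h2bb-ps 1 and 1, and the other 6 had none.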
